A study of Mus musculus with 6 samples.

Results

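Hsd11b1 and 4 genes of the glucocorticoid response, Nr3c1, Fkbp5, Tsc22d3 and Per1, were followed in splenic CD11b+Gr-1high cells on 6 whole-genome arrays. Every probe whose annotated gene symbol is one of the 5 was taken, which gave 12 of 45281 probes and 5 of 19057 annotated genes. Hsd11b1 had 4 probes, Tsc22d3 and Per1 had 3 each, and Nr3c1 and Fkbp5 had 1 each. All cells came from female BALB/c mice and were sorted by flow cytometry in 2 independent experiments, with 2 arrays in each of 3 groups. WT mice carried no tumor, G-CSF-treated mice received recombinant G-CSF protein at 10 µg a day for 5 days, and 4T1-TB mice bore orthotopic tumors of 4T1, a BALB/c mammary carcinoma line. The number of mice behind each array is not given in the sources used here, so p-values measure only the spread between arrays.

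The enzyme 11β-HSD1, encoded by Hsd11b1, sits in the endoplasmic reticulum and turns inactive 11-dehydrocorticosterone into corticosterone, the active glucocorticoid of mice. It draws on NADPH made in the same compartment by hexose-6-phosphate dehydrogenase (H6pd). Active hormone binds the glucocorticoid receptor (Nr3c1), which an HSP90 complex holds ready in the cytosol and which then acts in the nucleus on genes with its binding element. Fkbp5, an HSP90 cochaperone that lowers hormone affinity of the receptor, Tsc22d3, which encodes the anti-inflammatory protein GILZ, and Per1, a repressor of the circadian clock, are widely used target genes of the receptor. In neutrophils glucocorticoids are known to delay apoptosis and alter trafficking.

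The 250 bases before a transcription start are shown for Hsd11b1, the gene whose level differed most, and for the 1 of 7 member promoter windows that held the core hexamer of the receptor's element. Both are from RefSeq on GRCm38.p6 and read 5′ to 3′ on the minus strand, for Hsd11b1 at chr1:193242361-193242610 and for the third Tsc22d3 start site at chrX:140600523-140600772. Capitals mark the hexamer.
Hsd11b1: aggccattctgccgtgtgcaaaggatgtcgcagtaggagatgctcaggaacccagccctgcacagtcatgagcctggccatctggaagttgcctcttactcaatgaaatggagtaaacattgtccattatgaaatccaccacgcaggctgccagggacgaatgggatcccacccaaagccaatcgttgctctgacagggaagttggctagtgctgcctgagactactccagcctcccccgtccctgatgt
Tsc22d3: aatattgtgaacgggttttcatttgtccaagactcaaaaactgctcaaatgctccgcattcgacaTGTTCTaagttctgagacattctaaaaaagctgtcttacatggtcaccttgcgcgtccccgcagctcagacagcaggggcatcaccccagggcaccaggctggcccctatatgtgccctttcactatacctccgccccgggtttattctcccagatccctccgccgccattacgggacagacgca
The hexamer, AGAACA or TGTTCT on either strand, began 185 bases before that Tsc22d3 start site. It occurred in 6233 of 32851 mouse promoter windows of 300 bases (19.0%), so 1 match among 7 member windows is no more than a description. The whole element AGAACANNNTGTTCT, searched on both strands, was in 3 windows (0.00913%) and in no window of Hsd11b1, Fkbp5, Tsc22d3 or Per1. These 300-base windows hold 7 start sites of the 4 genes and leave out Nr3c1, introns and distant enhancers. The outermost 5′ ends of Hsd11b1 and Per1 lie outside their windows. The genes lie at chr1:193221640-193264045 (Hsd11b1), chr17:28398753-28486149 (Fkbp5), chrX:140539528-140600522 (Tsc22d3) and chr11:69095108-69109965 (Per1). Which start site each Tsc22d3 probe follows was not determined here.

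Values are deposited log2 intensities, quantile normalized so that all arrays share 1 distribution, and a detection p under 0.05 marks a probe as detected. Between 7421 and 10036 probes were detected per array. The neutrophil genes S100a8, S100a9, Retnlg, Ltf and Camp were detected on all 6 arrays, with S100a8 between 13.70 and 14.27 on the log2 scale. Neutrophil genes did not all keep their level, and they moved both ways. Csf3r, the G-CSF receptor, changed by -3.52 in 4T1-TB and by -2.83 in G-CSF (limma adjusted p = 0.0133 and 0.0296). Ngp, a granule protein, changed by -4.32 in 4T1-TB (adjusted p = 0.045) and differed by -3.42 in G-CSF (adjusted p = 0.107). The chemokine receptor Cxcr2 differed by -1.35 and -1.31 (adjusted p = 0.0707 and 0.0876). S100a8 differed by -0.2 in 4T1-TB (adjusted p = 0.237) and changed by -0.48 in G-CSF (adjusted p = 0.0176). Ltf and Fcnb rose in 4T1-TB, by 1.17 and 2.68 (adjusted p = 0.0415 and 0.00888). In G-CSF they differed by 0.73 and 0.26 (adjusted p = 0.195 and 0.832). Itgam, which encodes CD11b, was detected on the WT arrays alone, at 7.78 and 7.95, beside 6.79 to 7.0 on the other 4. Ly6g, which encodes an antigen recognized by Gr-1 antibodies, was not measured here. RNA of erythroid cells stood out on 2 arrays: Alas2, the first enzyme of erythroid heme synthesis, was at 11.12 on G-CSF replicate 1 and 11.15 on 4T1-TB replicate 1, and between 6.87 and 6.93 on the other 4. In bulk RNA a change in the share of a cell type and a change in RNA per cell cannot be told apart.

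Hsd11b1 was low in WT cells and high in both other groups. At probe ILMN_3115917, its brightest, the WT arrays read 8.03 and 8.13 in normalized log2 intensity, the G-CSF arrays 11.47 and 9.99, and the 4T1-TB arrays 11.69 and 11.50. Before normalization the intensities were 200.6 and 185.8 in WT, 5024.3 and 1231.0 in G-CSF and 4820.3 and 2829.0 in 4T1-TB. Both groups lay wholly above WT, and the G-CSF arrays were far apart while the WT and 4T1-TB pairs lay close together. Mean log2 levels were 8.08 ± 0.07 in WT, 10.73 ± 1.04 in G-CSF and 11.60 ± 0.14 in 4T1-TB cells (SD, n = 2 each). The fold change against WT was 11.5 in 4T1-TB cells (log2 3.52, SE 0.45) and 6.28 in G-CSF cells (log2 2.65, SE 0.45). Hsd11b1 was picked because it ranked among the largest increases of 4T1-TB over WT, so these differences from WT are a description and carry no test here.

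The next 2 probes gave nearly the same picture. ILMN_1214998 read 8.0 and 8.34 in WT, 11.16 and 9.90 in G-CSF, and 11.28 on each 4T1-TB array, which is 8.62-fold over WT in 4T1-TB and 5.13-fold in G-CSF. ILMN_2774160 read 7.54 and 8.05 in WT, 10.92 and 9.38 in G-CSF, and 10.81 and 10.96 in 4T1-TB, which is 8.50-fold and 5.11-fold. Over the 6 arrays the 3 probes correlated at r = 0.993 to 0.998, a description over samples that share their labels and processing. The fourth probe, ILMN_3041149, stayed between 6.78 and 6.97 and was detected on no array, so it measured no level in any group. All 4 probes are annotated to the transcript NM_008288, and what sets the fourth apart was not tested.

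**Figure D1:**
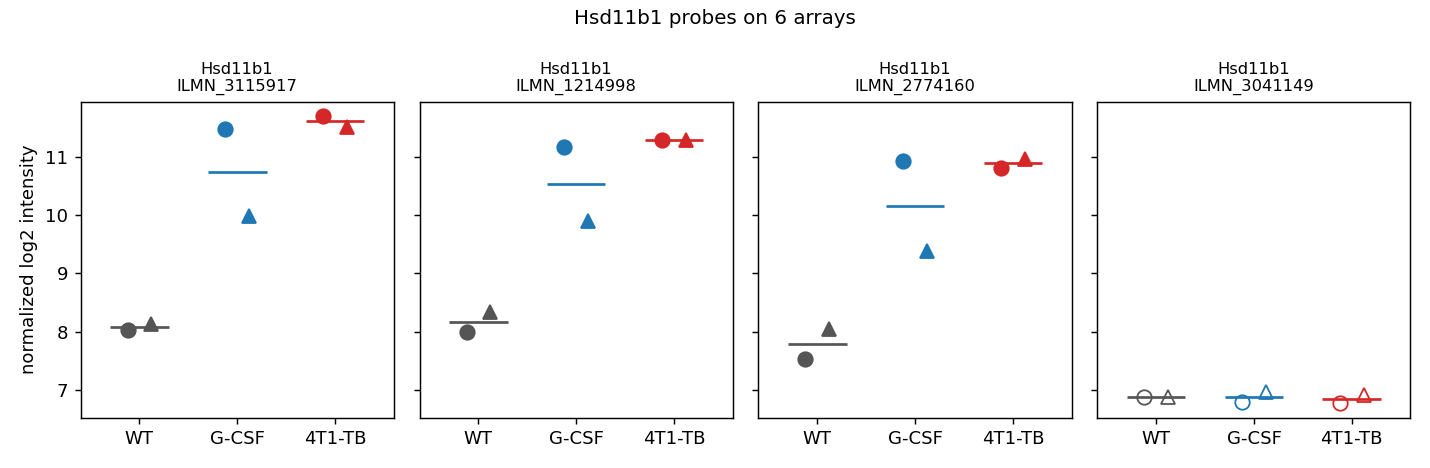
Normalized log2 intensity of the 4 Hsd11b1 probes (y axis) by group (x axis: WT, G-CSF, 4T1-TB), with circles for replicate 1, triangles for replicate 2, bars for group means and filled symbols where the probe was detected. At 3 probes both treated or tumor-bearing groups lie above WT, from 8.03 and 8.13 in WT to 11.69 and 11.50 in 4T1-TB at the brightest, whereas ILMN_3041149 is undetected on all 6 arrays.

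Among all 12 member probes, 3 were at least 2-fold higher in 4T1-TB than in WT, all of Hsd11b1, and 1 was at least 2-fold lower, of Tsc22d3. Over all probes 1.96% were that much higher and 2.23% that much lower. The same 3 and 1 probes passed 2-fold in G-CSF cells, where the shares over all probes were 1.49% and 1.97%. Groups did not overlap at 10 of 12 probes for 4T1-TB against WT and at 8 of 12 for G-CSF against WT, beside 44.8% and 41.5% of all probes. Since Hsd11b1 was chosen on this contrast and both comparisons share the WT arrays, nothing is read from these counts. Between 4T1-TB and G-CSF, 4 of 12 probes did not overlap, beside 30.4% of all probes.

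4T1-TB and G-CSF cells were compared in the same fit. The 4T1-TB arrays on which Hsd11b1 was chosen enter here too, so the comparison is not free of that choice. Hsd11b1 at its brightest probe was 0.87 higher on the log2 scale in 4T1-TB (SE 0.45, 95% interval -0.25 to 1.99, limma adjusted p = 1). The other detected probes gave 0.75 (interval -0.23 to 1.73) and 0.74 (interval -0.49 to 1.96). The order of the levels was thus WT, G-CSF, 4T1-TB, with the last pair not separated beyond their spread. This rested on G-CSF replicate 1: without it the difference was 1.61 with an adjusted p of 0.000758, and without G-CSF replicate 2 it was 0.132. Either fit holds 1 G-CSF array and assumes that it varies like the arrays of the other groups (SE 0.104), while the G-CSF pair itself had an SD of 1.04, so nothing is read from that p. No member probe differed between 4T1-TB and G-CSF at an adjusted p under 0.05, and neither did any of 19057 genes (0% called in limma, 777 at an unadjusted p under 0.05).

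Erythroid RNA was high on 1 array each of G-CSF and 4T1-TB. Marker sums below are of deposited linear intensities before normalization, and calls are from the normalized values. Linear intensities also carry differences in brightness between arrays. Bcl6, from the induced list below, read 10.97 and 11.04 in WT, 11.04 and 11.03 in G-CSF and 11.01 and 10.89 in 4T1-TB after normalization. Its linear intensities were 1271.1 and 932.3 in WT, 3902.0 and 2650.2 in G-CSF and 3143.1 and 1884.7 in 4T1-TB. The sums are thus not read as cell content. Of 6 measured erythroid marker genes 1 was detected on no array, 0 were called, and their summed intensity was 1092 to 1345 in WT, 1250 to 19686 in G-CSF and 717 to 29444 in 4T1-TB. Hsd11b1 was at 11.69 on 4T1-TB replicate 1, where Alas2 was at 11.15, and at 11.50 on 4T1-TB replicate 2, where Alas2 was at 6.88. Within the G-CSF group the array with the high erythroid signal also had the higher Hsd11b1, 11.47 against 9.99. Macrophage markers, 13 genes of which 5 were detected on no array, summed to 1895 to 1924 in WT, 1690 to 1848 in G-CSF and 1506 to 1744 in 4T1-TB, and 9 monocyte genes, 4 of them detected on no array, to 1933 to 2349, 1345 to 1846 and 1169 to 1413. Of the macrophage genes 3 fell and 0 rose in each comparison with WT (23.1%). Of the monocyte genes 2 fell in 4T1-TB (22.2%) and 1 in G-CSF (11.1%). Over all genes 8.58% were called in 4T1-TB and 6.97% in G-CSF. Among genes detected on at least 2 arrays the shares were 22.2% and 18.1%, and 7 macrophage and 5 monocyte genes were so detected. Nothing is read from these counts. Neutrophil markers (14 genes, Mmp8 detected on no array) summed to 36320 to 45534, 52871 to 80706 and 60301 to 75269, and T cell markers (6 genes, 2 detected on no array) to 955 to 999, 2261 to 3873 and 2762 to 2861. Most of the T cell sum in G-CSF and 4T1-TB was Cd3d, at 2802.1 and 1673.8 in G-CSF and 2066.3 and 2214.9 in 4T1-TB, beside 405.1 and 370.3 in WT. The other T cell markers were undetected on replicate 2 of G-CSF and of 4T1-TB. After normalization 2 neutrophil genes rose and 3 fell in 4T1-TB and 0 rose and 3 fell in G-CSF, with medians of -0.03 and -0.23. That is 35.7% and 21.4% called, and 13 of the 14 were detected on at least 2 arrays. Of 6 T cell genes 0 were called, with medians of 0.2 and 0.37. B cell markers (6 genes, each detected on some array) summed to 741 to 769, 717 to 1186 and 706 to 907, and stromal markers (8 genes, 4 detected on no array) to 959 to 1048, 976 to 1018 and 979 to 1035. The part of erythroid, T cell and neutrophil content in the Hsd11b1 result was not tested.

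The 6 genes whose profile lay closest to Hsd11b1 were Anxa3, Fah, Tbca, Klhl6, Ss18l2 and Ethe1, by Euclidean distance between mean-centred log2 values over the 6 arrays. Anxa3, an annexin of neutrophils, came first at a distance of 0.19 (r = 0.999). It read 9.43 and 9.71 in WT, 12.87 and 11.33 in G-CSF, and 13.08 and 12.97 in 4T1-TB. Fah, the last enzyme of tyrosine breakdown, came next at 0.32 (r = 0.997). It was detected on neither WT array and was higher by at least 9.10-fold in 4T1-TB and 5.12-fold in G-CSF, a bound set with the lowest detected signal of each WT array. Tbca, a tubulin folding cofactor, lay at 0.61 and Ethe1, a mitochondrial sulfur dioxygenase, at 0.67. All of them were chosen for likeness to Hsd11b1, so their shared low value on G-CSF replicate 2 is part of the choice.

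**Figure D2:**
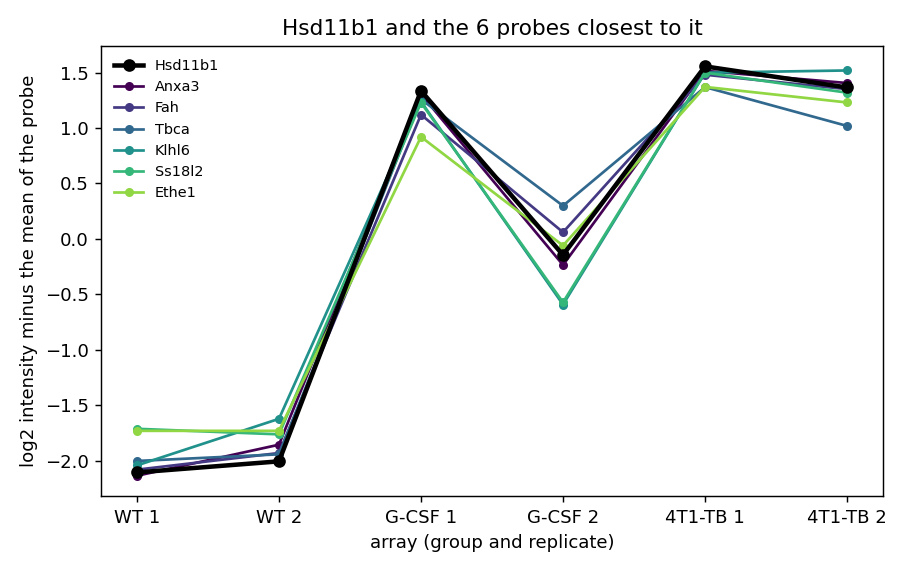
Log2 intensity minus the mean of each probe over the arrays (y axis) for Hsd11b1 in black and the 6 closest genes in color, on the 6 arrays (x axis); lines only join the points of a gene. Each is low on both WT arrays, high on G-CSF replicate 1 and on both 4T1-TB arrays, and intermediate on G-CSF replicate 2, as with Anxa3 at 11.33 against 12.87 on the other G-CSF array.

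The receptor itself could not be measured. Nr3c1 probe ILMN_2740568 read 6.83 and 6.79 in WT, 6.89 on each G-CSF array, and 6.95 and 6.81 in 4T1-TB, and was detected on no array. With 1 probe of the gene near the array floor, a low level and a probe that works poorly cannot be told apart, and no fold change is given.

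Fkbp5 was dim and slightly higher in 4T1-TB cells. Its probe ILMN_2718266 read 7.36 and 6.93 in WT, 7.32 and 7.38 in G-CSF, and 7.59 on each 4T1-TB array, and was undetected on WT replicate 2 alone (detection p 0.376). The 4T1-TB arrays lay above all others, and the G-CSF arrays overlapped the WT range. Against WT the level was 1.36-fold in 4T1-TB (log2 0.45, SE 0.14) and 0.21 higher on the log2 scale in G-CSF. Without WT replicate 1 these were 0.662 and 0.425, and without WT replicate 2, the undetected array, 0.231 and -0.00583. With neqc, which removes background, they were 1.28 and 0.683.

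Tsc22d3 was lower in both groups than in WT at each of 3 probes in the deposited values, although the brightest was higher with median centring. Probe ILMN_2701664, annotated to NM_010286, read 8.47 and 8.61 in WT, 7.12 on each G-CSF array, and 7.16 and 7.02 in 4T1-TB. It was undetected on 4T1-TB replicate 2 (detection p 0.108). The WT arrays lay well above the other 4, and the log2 difference from WT was -1.45 in 4T1-TB (SE 0.08) and -1.42 in G-CSF, where the replicates of each group nearly coincided. With arrays centred on their medians and not quantile normalized it was -0.74 and -0.71, and with neqc -3.16 and -3.06.

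The brightest Tsc22d3 probe, ILMN_3150811, annotated to NM_001077364, moved less and its direction depended on the normalization. It read 9.59 and 9.82 in WT, 9.56 and 9.23 in G-CSF, and 9.18 and 9.22 in 4T1-TB, a difference from WT of -0.51 (SE 0.13) and -0.31 with quantile normalization that became 0.76 and 1.23 with median centring. In G-CSF it was -0.148 without G-CSF replicate 2 and -0.475 without G-CSF replicate 1. The dimmest probe, ILMN_2648224, annotated to AF201289, read 7.19 and 7.38 in WT, 7.00 and 7.10 in G-CSF, and 6.96 and 7.07 in 4T1-TB. That is -0.27 in 4T1-TB and -0.23 in G-CSF, close to the array floor. The 3 probes carry different transcript accessions, and whether they read different GILZ isoforms was not tested.

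Per1 lay at the edge of detection. ILMN_2813487 read 7.01 and 7.27 in WT, 7.07 and 6.93 in G-CSF, and 6.93 and 6.97 in 4T1-TB, and was detected on WT replicate 2 and G-CSF replicate 1. ILMN_2813484 was detected on WT replicate 2 alone, at 7.17, and read 6.82 to 6.97 elsewhere. ILMN_1249997 was detected on G-CSF replicate 1 at 7.15 and 4T1-TB replicate 1 at 7.09, and read 6.75 to 6.94 elsewhere. In 4T1-TB, where the first 2 probes were undetected, they were lower than WT by at least 1.07-fold and 1.02-fold. Both bounds rest on WT replicate 2, since WT replicate 1 was undetected at each (detection p 0.1 and 0.173), and the difference of ILMN_2813487 went from -0.186 to -0.0543 without WT replicate 2. ILMN_1249997 was undetected in WT and gave no bound above 1, so Per1 showed no common direction at this brightness.

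**Figure D3:**
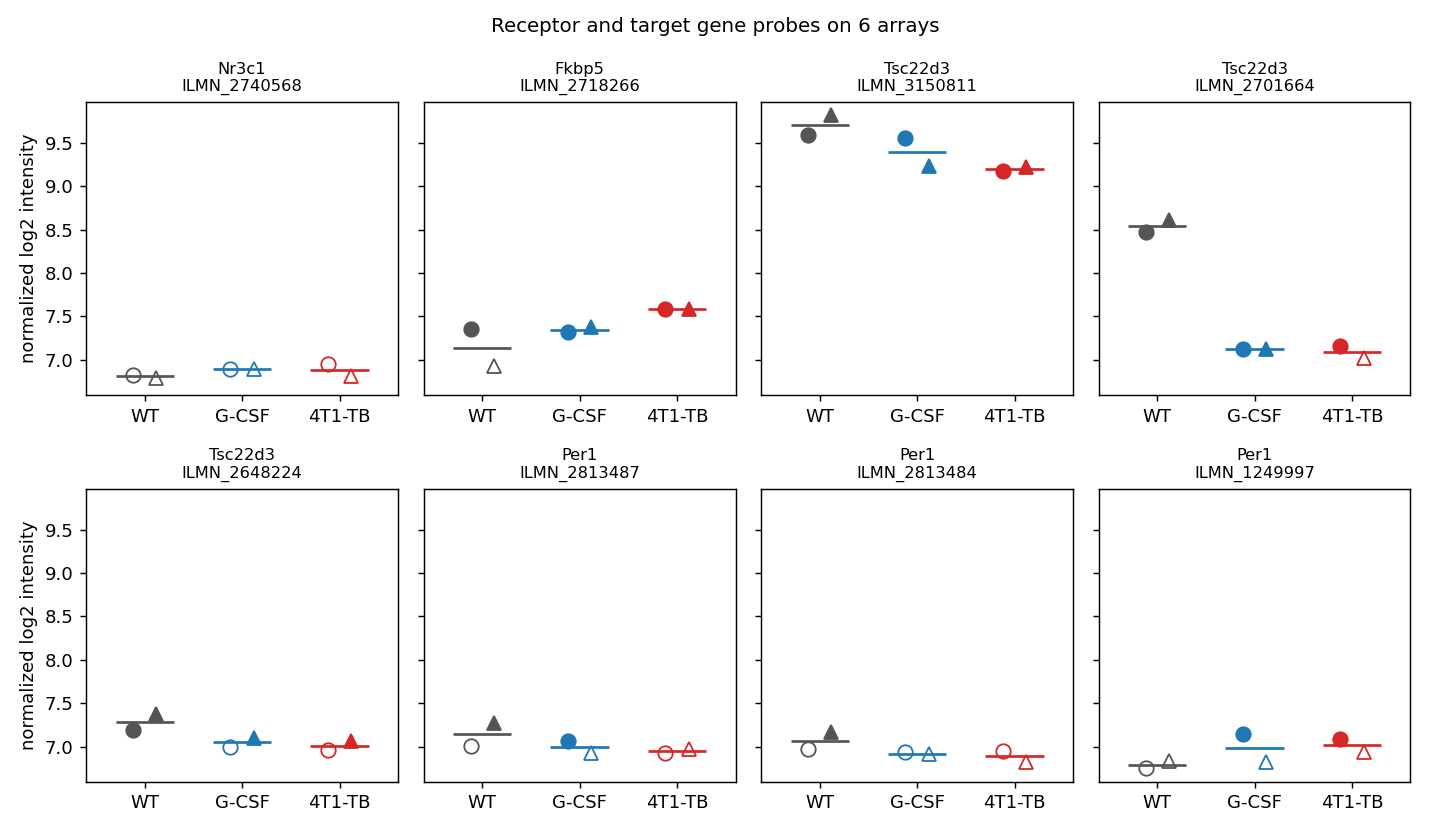
Normalized log2 intensity (y axis) of the 8 probes of Nr3c1, Fkbp5, Tsc22d3 and Per1 by group (x axis: WT, G-CSF, 4T1-TB), with circles for replicate 1, triangles for replicate 2, bars for group means and filled symbols where the probe was detected. Tsc22d3 probe ILMN_2701664 reads 8.47 and 8.61 in WT and between 7.02 and 7.16 in the other groups, while Nr3c1 is undetected throughout and Per1 is at the edge of detection.

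Genes around the members were taken from 7 lists of 119 genes, of which 110 were measured (Fkbp4 and Tsc22d1 stand in 2 lists each), with 1 probe a gene and a limma test across all probes at an adjusted p under 0.05. By that test 8.58% of all genes were called in 4T1-TB against WT (5.41% higher, 3.17% lower) and 6.97% in G-CSF against WT (4.12% higher, 2.85% lower). Among genes detected on at least 2 arrays the shares were 22.2% and 18.1%. The 2 comparisons share the WT arrays, and their values stand side by side.

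Of 13 measured genes that make, convert or export steroids, 1 rose and 0 fell in each comparison, and 10 were detected on no array. That is 7.69% called in each, beside 8.58% of all genes in 4T1-TB and 6.97% in G-CSF. The one that rose was Srd5a3, a polyprenol reductase of the steroid reductase family. It read 8.69 and 8.64 in WT, a mean of 10.12 in G-CSF, and 10.22 and 10.12 in 4T1-TB (log2 1.5, SE 0.09, adjusted p = 0.00147 in 4T1-TB and 1.46, adjusted p = 0.00162 in G-CSF). Its other detected probes gave -0.45 and -0.39 in 4T1-TB and were not called, so the rise held at 1 of 3 probes. H6pd, the NADPH source of 11β-HSD1, read 7.62 and 7.91 in WT, 8.94 and 8.27 in G-CSF, and 8.79 and 8.81 in 4T1-TB. Its groups did not overlap with WT, but the difference of 1.04 in 4T1-TB (SE 0.23, adjusted p = 0.0698) and 0.84 in G-CSF (adjusted p = 0.15) did not pass. In 4T1-TB it passed when only probes detected on at least 2 arrays were tested. Hsd11b2, which inactivates the hormone, was detected on 1 array, and Slc37a4, which brings glucose-6-phosphate to H6pd, on none.

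Of 20 measured chaperones and coregulators of the receptor, 1 rose and 3 fell in 4T1-TB, and 0 rose and 2 fell in G-CSF. That is 20.0% called in 4T1-TB beside 8.58% of all genes, and 2 of 20 in G-CSF beside 6.97%. Of the 20, 10 were detected on at least 2 arrays, where the shares over all genes were 22.2% and 18.1%. Ep300, a coactivator that acetylates histones, fell from 9.46 and 9.78 in WT to 7.66 and 8.17 in G-CSF (log2 -1.71, adjusted p = 0.0117) and to 7.75 and 7.44 in 4T1-TB (log2 -2.03, SE 0.21, adjusted p = 0.00655). Ppp5c, a phosphatase bound to HSP90, was detected in WT alone, and its decrease was at least 1.61-fold in 4T1-TB (adjusted p = 0.00593) and at least 1.62-fold in G-CSF (adjusted p = 0.0048). Another Ppp5c probe differed by 0.05 and 0.08. Stip1, which hands clients from HSP70 to HSP90, fell in 4T1-TB by at least 1.41-fold (adjusted p = 0.0349). In G-CSF it was lower by at least 1.42-fold, which did not pass (adjusted p = 0.0649). Med1, a Mediator subunit, rose in 4T1-TB by at least 1.15-fold (adjusted p = 0.0186). In G-CSF it was higher by at least 1.05-fold, which did not pass (adjusted p = 0.0647). Its other detected probes differed by 0.06 and 0.03 in 4T1-TB (adjusted p = 0.79 and 0.909), so the rise held at 1 of 3 probes. Fkbp4, the cochaperone that Fkbp5 competes with, was detected on all 6 arrays and differed by -0.24 in each comparison (adjusted p = 0.393 and 0.407). Hsp90aa1 was detected on 1 array and the mineralocorticoid receptor Nr3c2 on none, and Hsp90ab1 was not measured here.

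Genes that glucocorticoids commonly induce moved both ways. Of 30 genes, 2 rose and 4 fell in 4T1-TB, and 1 rose and 3 fell in G-CSF. That is 20.0% and 13.3% called, beside 8.58% and 6.97% of all genes. Among genes detected on at least 2 arrays the shares over all genes were 22.2% and 18.1%. The list held 22 such genes of 30, a larger part than the 7344 of 19057 over all genes, so nothing is read from its share. The median log2 change was 0.01 and 0.02, beside 0.01 for all genes in each comparison, and 15 genes were at an unadjusted p under 0.05 in each.

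Anxa1, which encodes the anti-inflammatory annexin A1, rose in both groups. It read 7.37 and 7.23 in WT, 9.14 and 8.62 in G-CSF, and 9.66 and 9.30 in 4T1-TB (log2 2.18, SE 0.20, adjusted p = 0.00468 in 4T1-TB and 1.58, adjusted p = 0.0134 in G-CSF). Il1r2, the decoy receptor of interleukin-1, rose in 4T1-TB (log2 0.81, SE 0.14, adjusted p = 0.0355) and differed by 0.7 in G-CSF (adjusted p = 0.0667). Rgs2, a regulator of G-protein signaling, fell in 4T1-TB (log2 -0.33, adjusted p = 0.0323) and differed by -0.21 in G-CSF (adjusted p = 0.145). Both are named after their values were seen, to complete the 6 called in 4T1-TB.

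Tgm2, a transglutaminase, fell from 8.64 and 8.61 in WT to 7.98 and 7.73 in G-CSF and to 7.70 and 7.63 in 4T1-TB (log2 -0.77 and -0.96, adjusted p = 0.0107 and 0.00505), though with median centring the G-CSF change was 0.201. Rhob, a small GTPase, fell by 0.74 in G-CSF and by 0.97 in 4T1-TB (adjusted p = 0.0461 and 0.0174), calls lost under 10 and 6 of 14 alternative fits. Cxcr4, the receptor that retains neutrophils in bone marrow, fell from 9.09 and 9.10 to 7.85 and 7.98 in G-CSF and 7.84 and 8.36 in 4T1-TB (log2 -1.18 and -0.99, adjusted p = 0.0202 and 0.0316), though with median centring the 4T1-TB change was 0.00516.

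Other classical targets did not pass. Dusp1, a phosphatase that shuts off MAP kinases, read 11.99 and 11.96 in WT, 11.29 and 10.42 in G-CSF, and 10.78 and 10.30 in 4T1-TB (log2 -1.12 and -1.43, adjusted p = 0.147 and 0.0615). Sgk1, a serum- and glucocorticoid-regulated kinase, differed by -0.61 and -0.65 (adjusted p = 0.153 and 0.114), and the transcription factor Klf9 by 0.47 and 0.43 (adjusted p = 0.263 and 0.291). Nfkbia, the inhibitor of NF-kB, read 9.98 and 9.84 in WT, 7.02 and 8.88 in G-CSF, and 7.39 and 7.15 in 4T1-TB. Its differences of -1.96 and -2.64 had adjusted p = 0.182 and 0.0668, with G-CSF replicate 2 between G-CSF replicate 1 and the WT arrays.

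Among genes that glucocorticoids repress, 0 of 19 rose, and 2 fell in 4T1-TB and 1 in G-CSF. That is 10.5% and 5.26% called, beside 8.58% and 6.97% of all genes, and 9 of the 19 were detected on at least 2 arrays. Ccl3, a chemokine, read 8.90 and 8.94 in WT, 6.89 and 7.17 in G-CSF, and 6.88 and 6.85 in 4T1-TB. It fell in 4T1-TB, where it was undetected, by at least 3.67-fold (adjusted p = 0.000794), and differed by -1.89 on the log2 scale in G-CSF (adjusted p = 0.000996). Tnf, the cytokine, fell in 4T1-TB by at least 3.09-fold (adjusted p = 0.0339) and differed by -1.23 in G-CSF (adjusted p = 0.105). The call in 4T1-TB was lost under 7 of 14 alternative fits, and another Tnf probe differed there by -0.92 (adjusted p = 0.0616). Their medians, -0.08 and -0.09, stand beside 0.01 for all genes.

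Of 15 clock genes other than Per1, 2 rose and 1 fell in 4T1-TB, and 3 rose and 1 fell in G-CSF. That is 20.0% and 26.7% called, beside 8.58% and 6.97% of all genes. Of the 15, 6 were detected on at least 2 arrays, where the shares over all genes were 22.2% and 18.1%. Per2, a paralog of Per1, read 7.89 and 7.77 in WT, 9.45 and 8.84 in G-CSF, and 8.88 and 8.62 in 4T1-TB, a rise in G-CSF (log2 1.32, adjusted p = 0.0276) and a difference of 0.92 in 4T1-TB that did not pass (adjusted p = 0.0784). Bhlhe40, a repressor of clock genes, rose by at least 1.80-fold in G-CSF and at least 1.63-fold in 4T1-TB (adjusted p = 0.0129 and 0.0208). Csnk1e, a kinase of PER proteins, fell by 1.16 in G-CSF and by 1.71 in 4T1-TB (adjusted p = 0.00356 and 0.0012), though with median centring the G-CSF change was 0.306. Its relative Csnk1d rose at the brightest probe by 0.86 and 0.63 (adjusted p = 0.0161 and 0.041) and at another by 0.79 and 0.74 (adjusted p = 0.00466 and 0.0054). A further detected probe was called lower, at -3.21 and -3.10, and the last detected one differed by -0.07 and -0.06, so the probes of this gene went opposite ways. Nr1d1, another clock repressor, was detected on 1 array.

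Relatives of Fkbp5 and Tsc22d3 were taken as families. Of 12 FKBP genes 0 were called in either comparison (limma, with 0 in 4T1-TB and 1 in G-CSF at an unadjusted p under 0.05). Of 3 TSC22 genes 1 fell in each. Over all genes 8.58% were called in 4T1-TB and 6.97% in G-CSF, and nothing is read from counts in families this small. Tsc22d4 read 8.97 and 8.87 in WT and 6.74 to 6.82 on the other 4 arrays, where it was undetected, a decrease of at least 3.66-fold and 3.69-fold (4T1-TB and G-CSF, adjusted p = 0.00042 and 0.000463). Tsc22d2 differed by 0.57 in 4T1-TB (adjusted p = 0.191).

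**Figure D4:**
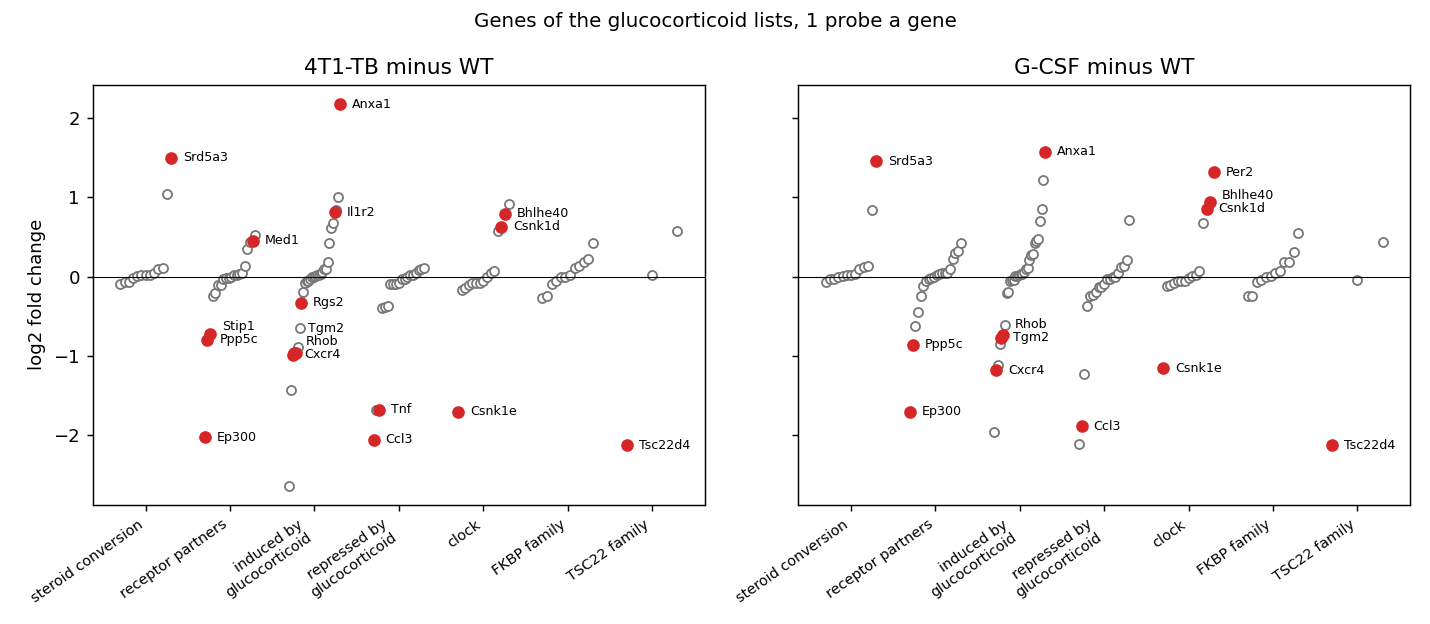
Log2 fold change against WT (y axis) of each measured gene of the 7 glucocorticoid lists (x axis), for 4T1-TB on the left and G-CSF on the right, with genes in rank order within a list. Red filled points with names passed a limma adjusted p under 0.05 and open points did not; fold changes of genes undetected in a group are drawn as fitted and are bounds in the text. Genes induced by glucocorticoids lie on both sides of 0, from Anxa1 at 2.18 in 4T1-TB to Nfkbia at -2.64, which did not pass.

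Many of these calls changed with the normalization or with 1 array. Median centring aligns arrays at their medians, near the array floor, so it can leave brighter probes at unlike scales. Of the genes named by rule, so without Il1r2 and Rgs2, 15 were called in 4T1-TB and 13 in G-CSF. With median centring 15 and 13 of them were no longer called, and 10 and 8 were lost when a WT array was left out. Leaving out a 4T1-TB array lost 9 of the 15 calls in 4T1-TB and 2 of the 13 in G-CSF, and leaving out a G-CSF array lost 0 of either.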

How the data were processed

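Splenic CD11b+Gr-1high cells were profiled on MouseWG-6 v2 BeadChips, 2 per group. The authors deposited a linear intensity for each of 45281 probes, exported from GenomeStudio, whose version is not given in the sources consulted. Background subtraction is named in the methods, yet the lowest intensity per array was 85.3 to 91.8. A detection p-value from the same software was deposited beside every intensity. The authors also deposited log2 values made with lumi and quantile normalization, and log2 and quantile normalization of the intensities gave the same values within 4.99e-09. In the intensity table, 1 array each of G-CSF and 4T1-TB carries no number and was taken as replicate 1, since the other column of the group is numbered 2. Probe genes came from the array annotation: 34885 probes have 1 gene, 18 several and 10378 none, and 34807 were found in RefSeq with 0 symbols changed.

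Group means were fitted to the deposited log2 values with limma 3.58.1 in R 4.3.3, with 3 contrasts, 3 residual and 2.59 prior degrees of freedom, and Benjamini-Hochberg adjustment over all probes. Tables and figures were made in Python 3.11.15. The fit was tested on simulated data. Lists use the probe with the highest mean log2 value of each gene. Where a gene is undetected on both arrays of a group, the change is a bound: the lowest detected signal of each array replaces a lower value. The members and lists were chosen with earlier results of these data known. Genes named from the lists are up to 4 per list and comparison with the smallest adjusted p under 0.05, plus 15 fixed genes of the pathway, all member probes, and the 6 profiles closest to Hsd11b1. Alternatives were neqc (offset 16), a floor of 16, median centring, a filter on probes detected on at least 2 arrays, a fit restricted to the arrays compared, a block for the replicate number, a trended robust prior, other probes, another call criterion, and each array left out. The number of arrays, 6, limits the precision.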

Additional observations from a re-analysis of the deposited data

How the results depend on the processing

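Against WT, the Hsd11b1 log2 change in 4T1-TB was 4.09 with a floor of 16, 4.29 with median centring and 4.24 with neqc, in place of 3.52, and 3.11 and 3.09 at probes ILMN_1214998 and ILMN_2774160. Probe ILMN_3041149, undetected throughout, gave -0.0322, and in G-CSF 0.00825. Median centring gave 3.70 in G-CSF in place of 2.65. Leaving out 1 array gave 3.42 to 3.62 in 4T1-TB and 1.91 to 3.39 in G-CSF. The 4T1-TB over G-CSF difference of 0.87 ranged from 0.132 to 1.61, the last without G-CSF replicate 1, where the 1 G-CSF array left is assumed to vary like the other groups. It did not pass under any other alternative run, with adjusted p from 0.926 to 1. Of 30 glucocorticoid-induced genes, limma called 6 in 4T1-TB, 10 with the floor, 15 with only the 4 arrays compared, 3 by an unadjusted P under 0.01 with a change of at least 2-fold, and 0 with median centring (7 at an unadjusted p under 0.05). Without 1 array the count was 0 to 15: 0 without WT replicate 1 or WT replicate 2 (12 and 11 at an unadjusted p under 0.05), 2 without 4T1-TB replicate 2, and 15 without G-CSF replicate 1 or 2. In G-CSF it was 4, 2 with neqc, 0 with median centring (10 at an unadjusted p under 0.05) and 0 to 15 without 1 array: 0 without WT replicate 1 or 2 (7 and 10), 7 without G-CSF replicate 1 and 15 without G-CSF replicate 2. With median centring the signs of Tgm2 (0.201) and Csnk1e (0.306) in G-CSF and of Cxcr4 (0.00516) in 4T1-TB turned. Array medians were 117.2 to 126.9 in linear intensity, a level at which most probes were undetected. Centring on them can leave brighter probes at unlike scales, as with the linear intensities of Bcl6 given above. The causes of the turned signs were not tested. Over all probes the number called went from 2486 and 2053 to 35 and 112 with median centring, which moved the median change of detected probes from 0.07 and 0.07 to 0.17 and 0.21; neqc moved it to 0.20 and 0.20, and the floor to 0.19 and 0.19. Without a WT array 694 to 756 were called, without a 4T1-TB array 887 and 960 in 4T1-TB and 1376 in G-CSF, and without a G-CSF array 5126 in 4T1-TB and 2999 and 5089 in G-CSF.

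Replicate numbers are shared by the groups, but only 2 numbers exist and 2 columns carry none. Deviations of same-numbered arrays correlated at 0.023 (WT and G-CSF), -0.024 (WT and 4T1-TB) and 0.243 (G-CSF and 4T1-TB) over 11527 probes. Replicate 1 of G-CSF and 4T1-TB shared high erythroid signal (Slc4a1 at 12.24 and 11.58). Several lymphoid genes were higher there too (Cd79b at 8.31 and 7.71, Thy1 at 7.94 and 7.5). Cd3d, the brightest T cell marker measured, did not share this pattern. In 4T1-TB its level was 10.35 for replicate 1 against 11.12 for replicate 2, while G-CSF gave 10.59 against 10.4. The paper states that the cells were purified in 2 independent experiments. The sources do not say which array came from which, or that a number marks a shared experiment, so the numbers were not taken as pairs. With the replicate number as a block the Hsd11b1 changes were 3.52 in 4T1-TB, 2.65 in G-CSF and 0.87 between them, 6 and 3 induced genes were called, and the calls over all probes were 2267 and 1868. Of the named genes called, 2 in 4T1-TB (Stip1, Tnf) and 1 in G-CSF (Rhob) were lost with it.

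Among results for single genes of the lists, other members and the smaller lists, 722 values under an alternative kept direction and call or stayed near the main value, 96 lost a call, 48 gained one, 63 moved and 3 reversed. H6pd and Dusp1 in 4T1-TB were among those that passed with the filter on detected probes and with a trended robust prior. Signals near the array floor limit the values of Per1, Fkbp5 and Nr3c1.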
